A study of Mus musculus with 8 samples.

Results

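The genes described here encode the contractile unit of heart muscle and its anchoring structure, the Z-disc. They were 44 named genes, taken by symbol from the 18835 genes with values, and all 44 had 1 row with values. By role, 7 belonged to the thick filament, 8 to the thin filament, 11 to titin and its partners, 16 to the Z-disc and the costamere beside it, and 2 to the assembly of myosin. RNA sequencing covered hearts of 8 male BALB/cAJcl mice, aged 10 weeks, all immunized with cardiac myosin to induce autoimmune myocarditis. The PBS group (4 animals) received PBS injections alone. The VEGF-C group (4 animals) received VEGF-C C156S, a mutant of the lymphatic growth factor that signals through VEGFR-3, intraperitoneally at 1 μg/day on days 7 to 10 after immunization. Hearts were taken in week 3, and no unimmunized heart entered the comparison.

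In the sarcomere, myosin heads of the thick filament pull on actin of the thin filament when calcium binds the troponin complex. Titin spans from the Z-disc to the M-band and acts as a spring and a scaffold, and alpha-actinin crosslinks the actin filaments of neighbouring sarcomeres at the Z-disc. Many of these genes carry binding sites of SRF, which recognizes the CArG box, and of MEF2 factors close to their start sites. Changes in the myosin and actin isoforms are classical markers of a stressed heart.

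Promoter windows of 4 members that the values below turn on or that carry the classical motifs are shown here, from RefSeq on GRCm38.p6, which is not the build of the deposited values. Each runs from 250 bases before to 50 bases after the start site, with the motif matches in capitals. Mypn (chr10:63203903-63204202, minus strand) had the largest fold change of the 44 genes, Myom1 (chr17:71019307-71019606, plus strand) and Myoz2 (chr3:123034938-123035237, minus strand) were among the other genes that rose, and Actc1 (chr2:114052826-114053125, minus strand) is the cardiac actin gene.
Mypn: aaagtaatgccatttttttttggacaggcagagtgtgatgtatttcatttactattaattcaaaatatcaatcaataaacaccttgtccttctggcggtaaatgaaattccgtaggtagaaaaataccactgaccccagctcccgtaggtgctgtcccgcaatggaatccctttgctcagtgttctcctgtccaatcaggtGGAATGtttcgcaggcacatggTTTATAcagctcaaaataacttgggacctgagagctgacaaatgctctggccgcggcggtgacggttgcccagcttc
Myom1: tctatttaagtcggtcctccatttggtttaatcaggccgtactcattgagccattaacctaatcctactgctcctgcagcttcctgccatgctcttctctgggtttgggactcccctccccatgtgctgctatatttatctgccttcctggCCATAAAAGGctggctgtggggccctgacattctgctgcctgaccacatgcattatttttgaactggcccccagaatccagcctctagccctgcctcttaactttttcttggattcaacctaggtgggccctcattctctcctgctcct
Myoz2: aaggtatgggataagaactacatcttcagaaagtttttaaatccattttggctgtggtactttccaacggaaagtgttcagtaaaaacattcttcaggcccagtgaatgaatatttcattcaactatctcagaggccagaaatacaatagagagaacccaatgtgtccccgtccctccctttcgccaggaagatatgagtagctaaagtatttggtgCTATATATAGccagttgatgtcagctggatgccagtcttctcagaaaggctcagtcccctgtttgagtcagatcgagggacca
Actc1: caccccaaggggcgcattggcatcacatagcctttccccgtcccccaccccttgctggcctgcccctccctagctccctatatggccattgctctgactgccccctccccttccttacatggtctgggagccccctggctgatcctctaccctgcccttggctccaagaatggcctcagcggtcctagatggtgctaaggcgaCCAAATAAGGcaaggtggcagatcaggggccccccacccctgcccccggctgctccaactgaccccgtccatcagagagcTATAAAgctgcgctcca
In Mypn the capitals mark a CATTCC match (the core of the site of TEAD factors) that begins 49 bases before the start and a TATAAA match that begins 27 bases before it, both on the opposite strand. In Myom1 they mark a CArG box that begins 99 bases before the start. In Myoz2 they mark a MEF2 box that begins 33 bases before the start. In Actc1 they mark a CArG box that begins 47 bases before the start and a TATAAA match that begins 33 bases after the start.

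Of the 44 genes, 37 had windows in this table. Both strands were searched, and a gene counted once if any of its windows held the motif. The CArG box was found in 9 of these 37 genes (24.3%), against 1.81% of all 27025 genes of the table. The genes were Acta1, Actc1, Fhl2, Ldb3, Myl3, Myl7, Myom1, Nebl and Vcl. The MEF2 box was found in 6 of 37 (16.2%, against 3.70% of all genes), in Fhl2, Mybpc3, Myoz2, Synpo2l, Ttn and Xirp2. CATTCC was found in 19 of 37 (51.4%, against 16.6%) and TATAAA in 10 of 37 (27.0%, against 15.7%). A gene with more windows has more chances of a match, and the 37 genes had 52 windows, against 32851 for all 27025 genes. By window, the CArG box was in 11 of 52 (against 1.63% of all windows) and the MEF2 box in 7 (3.19%). CATTCC was in 21 of the 52 windows (14.7%) and TATAAA in 10 (13.6%). Of the 9 genes with windows that passed the expression test described next, 2 held a CArG box, 1 held a MEF2 box, 4 held the TEAD core and 3 held the TATA letters. The last of these motifs can lie inside a CArG or MEF2 box on either strand. A match describes letters in the window and was not a measurement of binding.

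Each value is on the authors' log2 scale, the logarithm of 4 plus a read count that was first divided by the size factor of its library. Fold changes are VEGF-C against PBS on this scale with the standard error of limma, and a gene passed at a limma adjusted p under 0.05 over all 18835 genes. Read totals ran from 61.7 to 76.8 M in PBS and from 53.7 to 65.2 M in VEGF-C. PBS replicate 1 stood apart from the other libraries on the second principal component (56.8, against -25.6 to 5.82), so counts are also given without it. Cardiomyocyte genes outside the sarcomere checked the tissue: 14 of 14 had values in every library, with a summed normalized count from 846239 to 1261551 in PBS and from 1229100 to 1469814 in VEGF-C. The labels name the heart as tissue although the title of the series names lymphatic endothelial cells, and in such tissue a change in the share of cardiomyocytes and a change in RNA per cardiomyocyte cannot be told apart.

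Z-disc genes made up most of the members that rose in the VEGF-C group. Of 44 genes, 13 rose, 0 fell and 31 did not pass, where 7.05% of all genes rose and 8.61% fell. The 13 were 8 of 16 Z-disc genes, 2 of 8 thin filament genes, 2 of 11 titin-associated genes, 1 of 2 myosin assembly genes and 0 of 7 thick filament genes. Differences in these counts between the role groups were not tested. Abundant genes rose more often in this comparison: in the top 10% of genes by mean value, 24.9% rose, 2.02% fell and the median log2 fold change was 0.20, against 0.00 over all genes. The median of the 44 members was 0.33.

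Fold changes were positive in 40 of 44 members, against 50.2% of all genes and 83.3% of the top 10% by mean value; the count was 31 with library totals as the scaling, 37 with upper-quartile factors and 40 with TMM factors. By role the median log2 fold change was 0.44 for the Z-disc, 0.35 for the thin filament, 0.23 for the thick filament, 0.15 for titin and its partners (-0.04 with library totals) and 0.23 for the 2 myosin assembly genes. The 2 groups of libraries did not overlap in 14 members, all higher in VEGF-C, where 11.5% of all genes and 35.6% of the top 10% by mean value lay wholly higher. The authors' deposited table has 21 of the 44 members under an adjusted p of 0.05, all higher, against 10.2% of the genes for which it gives one.

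**Figure D1:**
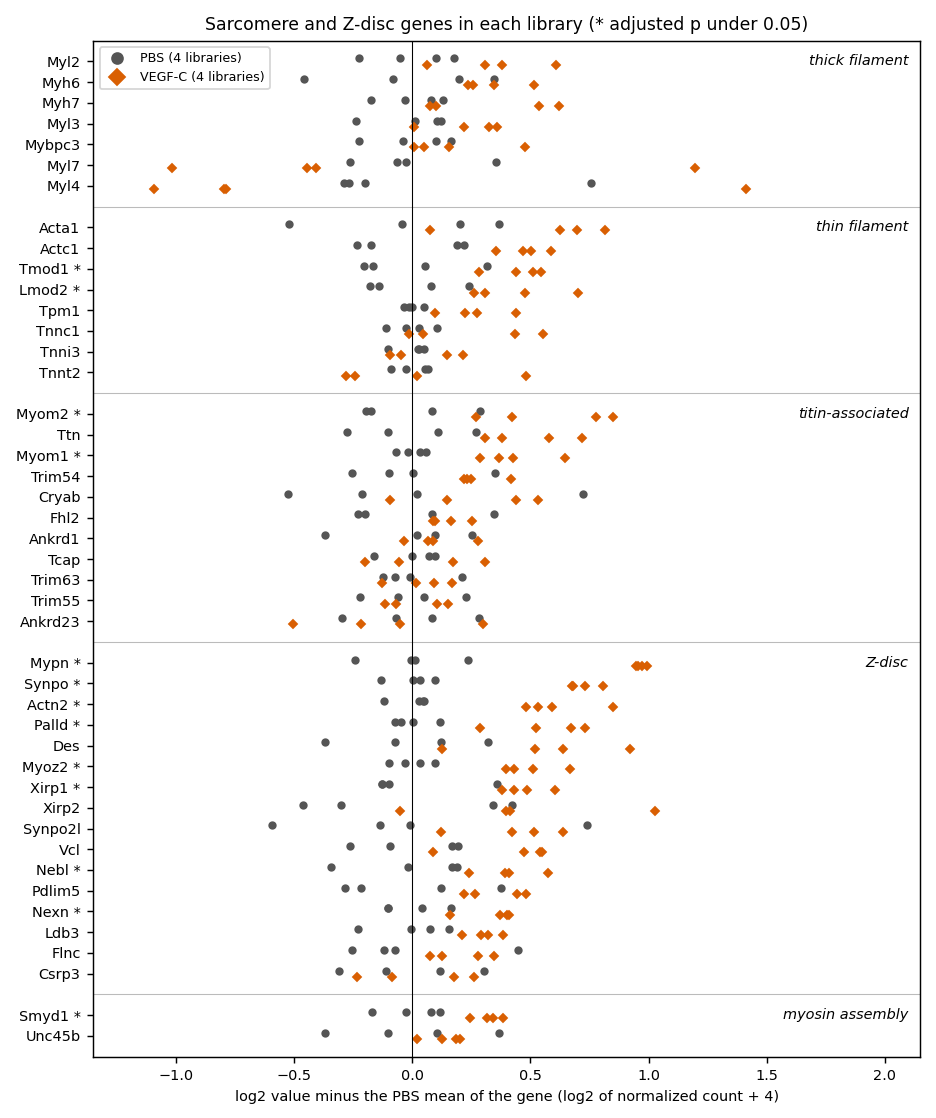
Each row is 1 of the 44 genes and each point is 1 library, drawn as its log2 value minus the mean of the 4 PBS libraries of that gene; grey circles are PBS, orange diamonds VEGF-C, and an asterisk marks a limma adjusted p under 0.05. The VEGF-C points of Mypn and Synpo lie clear of the PBS points, while Myl4 and Myl7 spread over more than 2 log2 units within VEGF-C.

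Mypn (ENSMUSG00000020067) encodes myopalladin, a Z-disc protein that links alpha-actinin and nebulin-type proteins to the titin anchored there. Its log2 values were 12.80, 12.79, 12.55 and 13.02 in PBS replicates 1 to 4 and 13.75, 13.76, 13.74 and 13.78 in VEGF-C replicates 1 to 4. The VEGF-C libraries lay close to one another (SD 0.02) and the lowest was 0.713 above the highest PBS library on the log2 scale. Mypn rose by 0.97 ± 0.09 (limma adjusted p = 0.000299), a 1.96-fold change. It passed without any 1 library (limma adjusted p up to 0.00202).

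Synpo (ENSMUSG00000043079), synaptopodin, binds actin and alpha-actinin and is also made outside muscle. Its log2 values were 13.00, 13.13, 13.16 and 13.23 in PBS replicates 1 to 4 and 13.81, 13.94, 13.80 and 13.86 in VEGF-C replicates 1 to 4. Every VEGF-C library was above every PBS library, by at least 0.578 on the log2 scale. Synpo rose by 0.72 ± 0.07 (limma adjusted p = 0.000351), or 1.65-fold, and passed without any 1 library (up to 0.00206).

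Actn2 (ENSMUSG00000052374) is the alpha-actinin of striated muscle, the crosslinker of actin at the Z-disc. Its values were 16.87, 16.89, 16.72 and 16.89 in PBS replicates 1 to 4 and 17.43, 17.69, 17.32 and 17.38 in VEGF-C replicates 1 to 4, with no overlap between the groups. It rose by 0.61 ± 0.12 (limma adjusted p = 0.0101). Myoz2 (ENSMUSG00000028116), calsarcin-1, tethers calcineurin to alpha-actinin, and its values were 15.37, 15.57, 15.51 and 15.44 in PBS replicates 1 to 4 and 15.98, 16.14, 15.87 and 15.90 in VEGF-C replicates 1 to 4. It rose by 0.50 ± 0.09 (limma adjusted p = 0.00765), again without overlap. Palld (ENSMUSG00000058056), palladin, is a relative of myopalladin found in many cell types, at 13.59, 13.54, 13.51 and 13.71 in PBS replicates 1 to 4 and 13.88, 14.26, 14.11 and 14.32 in VEGF-C replicates 1 to 4. It rose by 0.55 ± 0.10 (limma adjusted p = 0.00691), and PBS stayed below VEGF-C throughout. These genes passed without any 1 library (limma adjusted p up to 0.0297, 0.0247 and 0.0221).

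The other Z-disc genes that rose had smaller margins. Xirp1, an actin-binding repeat protein of the intercalated disc, had values of 14.79, 14.30, 14.30 and 14.33 in PBS replicates 1 to 4 and 14.81, 15.04, 14.91 and 14.86 in VEGF-C replicates 1 to 4, and its highest PBS library was just below the lowest VEGF-C library. It rose by 0.48 ± 0.12 (limma adjusted p = 0.0238). Nebl, nebulette, which lies along actin next to the Z-disc, had values of 13.25, 12.72, 13.05 and 13.23 in PBS replicates 1 to 4 and 13.30, 13.46, 13.47 and 13.64 in VEGF-C replicates 1 to 4, with a gap of 0.0515 on the log2 scale between the groups. It rose by 0.40 ± 0.12 (limma adjusted p = 0.0479). Nexn, nexilin, an actin-binding Z-disc protein, had values of 14.58, 14.32, 14.31 and 14.46 in PBS replicates 1 to 4 and 14.58, 14.79, 14.82 and 14.82 in VEGF-C replicates 1 to 4, and VEGF-C replicate 1 fell just under PBS replicate 1. It rose by 0.34 ± 0.09 (limma adjusted p = 0.0352). With 1 library left out, Xirp1 passed only when it was PBS replicate 1, VEGF-C replicate 1 or VEGF-C replicate 4, Nexn only when it was replicate 1 of either group, and Nebl only when it was PBS replicate 1. The highest limma adjusted p in these fits was 0.0620, 0.0955 and 0.114 in this order.

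Of the 8 Z-disc genes that did not pass, Csrp3, the muscle LIM protein of the Z-disc, had values of 16.35, 15.93, 16.16 and 15.73 in PBS replicates 1 to 4 and 16.22, 16.31, 15.81 and 15.96 in VEGF-C replicates 1 to 4. The groups overlapped over nearly their whole range, and its fold change was 0.03 ± 0.16 (limma adjusted p = 0.915), with a negative sign under library totals and upper-quartile factors. Xirp2, a relative of Xirp1, had values of 15.61, 14.89, 15.53 and 14.73 in PBS replicates 1 to 4 and 15.59, 16.21, 15.60 and 15.13 in VEGF-C replicates 1 to 4 and a fold change of 0.45 ± 0.25 (limma adjusted p = 0.246). Its spread within each group was among the widest of the Z-disc genes, with VEGF-C replicate 2 highest. Des, the intermediate filament protein desmin, which joins neighbouring Z-discs, had a fold change of 0.55 ± 0.21, Vcl (vinculin of the costamere) of 0.41 ± 0.13 and Synpo2l, a heart and muscle relative of Synpo, of 0.42 ± 0.23. Those of Pdlim5 and Ldb3, which carry PDZ and LIM domains, were 0.35 ± 0.15 and 0.30 ± 0.10, and that of Flnc (filamin C) was 0.21 ± 0.15. The limma adjusted p of these 6 genes ran from 0.0573 to 0.354. Without PBS replicate 1, Flnc, Pdlim5, Synpo2l and Vcl passed (limma adjusted p = 0.0395, 0.0299, 0.0186 and 0.0429), and Vcl also without VEGF-C replicate 1 (0.0265).

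Several Z-disc and costamere genes are also made in smooth muscle and fibroblasts. The counts that follow stand beside 7.05% of all genes that rose and 8.61% that fell. Of 7 smooth muscle genes, 0 rose and 1 fell (Smtn, -0.54 ± 0.14, which passed only without PBS replicate 1, PBS replicate 3 or VEGF-C replicate 2 when 1 library was left out), and their summed normalized count ran from 46939 to 88818 in PBS and from 61063 to 69929 in VEGF-C. Of 8 fibroblast genes, 1 rose (Col1a1, 0.69 ± 0.14) and 0 fell, and their sum ran from 603860 to 897626 in PBS and from 854487 to 1081010 in VEGF-C. None of these genes was at 0 in any library, and their part in the values of Synpo, Palld, Vcl, Des and Flnc was not tested.

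Of titin and its 10 partners, the M-band proteins Myom1 and Myom2 rose and 9 genes did not pass. Ttn (ENSMUSG00000051747), the spring of the sarcomere, had values of 17.21, 17.00, 16.83 and 17.37 in PBS replicates 1 to 4 and 17.41, 17.48, 17.68 and 17.82 in VEGF-C replicates 1 to 4. The lowest VEGF-C library was just above the highest PBS library, and the fold change of 0.50 ± 0.16 did not pass (limma adjusted p = 0.0573), though it did without PBS replicate 4 (limma adjusted p = 0.0454). Myom1, myomesin 1, which crosslinks myosin and titin at the M-band, had values of 15.90, 15.85, 15.80 and 15.93 in PBS replicates 1 to 4 and 16.23, 16.52, 16.16 and 16.30 in VEGF-C replicates 1 to 4. It rose by 0.43 ± 0.10 (limma adjusted p = 0.0203), with no overlap, and lost its call without PBS replicate 2 (0.0527). Myom2, its fast-fibre relative, had values of 15.92, 16.18, 16.38 and 15.90 in PBS replicates 1 to 4 and 16.36, 16.87, 16.51 and 16.94 in VEGF-C replicates 1 to 4. It rose by 0.58 ± 0.16 (limma adjusted p = 0.0374), with PBS replicate 3 above VEGF-C replicate 1, and with 1 library left out it passed only when this was one of that pair (limma adjusted p otherwise up to 0.0910).

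The stress-responsive and protein-turnover partners of titin did not pass. Ankrd1, a stretch-induced ankyrin repeat protein that binds titin's N2A region, had values of 17.75, 17.51, 17.59 and 17.12 in PBS replicates 1 to 4 and 17.58, 17.77, 17.46 and 17.56 in VEGF-C replicates 1 to 4. Apart from PBS replicate 4, which was lowest, the groups lay in the same range, and the fold change was 0.10 ± 0.16 (limma adjusted p = 0.704). Trim63, the muscle ubiquitin ligase MuRF1, had values of 13.38, 13.10, 13.05 and 13.16 in PBS replicates 1 to 4 and 13.26, 13.19, 13.04 and 13.34 in VEGF-C replicates 1 to 4 and a fold change of 0.04 ± 0.09 (limma adjusted p = 0.822). Its relatives Trim54 and Trim55 had fold changes of 0.28 ± 0.12 and 0.02 ± 0.10; Trim54 passed without PBS replicate 1 (limma adjusted p = 0.0158). Tcap, the cap of titin at the Z-disc, was at 0.06 ± 0.13, the LIM protein Fhl2 at 0.15 ± 0.14, the small heat shock protein Cryab at 0.26 ± 0.25 and Ankrd23 at -0.12 ± 0.17 (log2 fold change ± SE). With library totals the fold changes of Ankrd1, Trim63, Trim55, Tcap and Fhl2 were negative.

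Of the thin filament genes, the pointed-end proteins rose. Tmod1, tropomodulin 1, caps the slow-growing end of the actin filament, and its values were 12.96, 12.74, 12.71 and 13.22 in PBS replicates 1 to 4 and 13.19, 13.35, 13.42 and 13.45 in VEGF-C replicates 1 to 4. It rose by 0.44 ± 0.12 (limma adjusted p = 0.0292), although PBS replicate 4 exceeded VEGF-C replicate 1. Lmod2, leiomodin 2, elongates the filament at that end, with values of 14.87, 14.71, 14.46 and 14.49 in PBS replicates 1 to 4 and 14.94, 14.89, 15.11 and 15.34 in VEGF-C replicates 1 to 4. It rose by 0.44 ± 0.13 (limma adjusted p = 0.0409), with a gap of 0.0213 on the log2 scale between the groups. With 1 library left out, Tmod1 passed only when it was PBS replicate 1, PBS replicate 4 or VEGF-C replicate 1 (limma adjusted p otherwise up to 0.0773), and Lmod2 only when it was PBS replicate 1 or VEGF-C replicate 2 (otherwise up to 0.0975).

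The sarcomeric actins were higher on average without passing. Actc1, cardiac actin, had values of 17.72, 18.11, 17.66 and 18.08 in PBS replicates 1 to 4 and 18.25, 18.36, 18.48 and 18.39 in VEGF-C replicates 1 to 4. Every VEGF-C library was above every PBS library, and its fold change was 0.48 ± 0.16 (limma adjusted p = 0.0684). Actc1 and Ttn passed in limma-voom on recovered reads (adjusted p = 0.0339 and 0.0404). Acta1, skeletal actin, a fetal isoform that returns in stressed hearts, had values of 18.58, 18.42, 18.17 and 17.69 in PBS replicates 1 to 4 and 19.03, 18.91, 18.84 and 18.29 in VEGF-C replicates 1 to 4. Replicate 4 was lowest in both groups, and the fold change was 0.55 ± 0.24 (limma adjusted p = 0.140).

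None of the troponin genes passed. Tnnt2, the tropomyosin-binding troponin T of the heart, had values of 19.34, 19.43, 19.42 and 19.28 in PBS replicates 1 to 4 and 19.38, 19.84, 19.12 and 19.09 in VEGF-C replicates 1 to 4. The VEGF-C libraries spread to both sides of the PBS libraries, and the fold change was -0.01 ± 0.22 (limma adjusted p = 0.988). Tnni3, the inhibitory troponin I, had values of 17.79, 17.77, 17.64 and 17.77 in PBS replicates 1 to 4 and 17.96, 17.89, 17.70 and 17.65 in VEGF-C replicates 1 to 4 and a fold change of 0.06 ± 0.13 (limma adjusted p = 0.808), negative with library totals. Tnnc1, the calcium sensor troponin C, and Tpm1, alpha-tropomyosin, had fold changes of 0.25 ± 0.16 and 0.26 ± 0.17 (limma adjusted p = 0.291 and 0.335). All VEGF-C libraries were above all PBS libraries in Tpm1.

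None of the 7 thick filament genes passed. Myh6 (ENSMUSG00000040752), the fast alpha-myosin heavy chain of the adult mouse heart, had values of 20.28, 20.56, 19.90 and 20.71 in PBS replicates 1 to 4 and 20.62, 20.60, 20.70 and 20.88 in VEGF-C replicates 1 to 4. PBS replicate 3 was lowest, PBS replicate 4 lay within the range of VEGF-C, and the fold change was 0.34 ± 0.28 (limma adjusted p = 0.442). Myh7 (ENSMUSG00000053093), the slow beta-myosin heavy chain, had values of 16.44, 16.75, 16.58 and 16.70 in PBS replicates 1 to 4 and 16.72, 17.15, 16.69 and 17.24 in VEGF-C replicates 1 to 4. VEGF-C replicates 2 and 4 were highest, and the fold change was 0.33 ± 0.15 (limma adjusted p = 0.160). The 2 genes are alike in sequence. How well reads were told apart between them, or between Acta1 and Actc1, was not tested.

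Myl2, the ventricular regulatory light chain, had values of 18.28, 18.60, 18.45 and 18.68 in PBS replicates 1 to 4 and 18.81, 19.11, 18.56 and 18.88 in VEGF-C replicates 1 to 4 and a fold change of 0.34 ± 0.18 (limma adjusted p = 0.228). Mybpc3, cardiac myosin-binding protein C, had values of 17.86, 18.18, 18.04 and 18.25 in PBS replicates 1 to 4 and 18.09, 18.56, 18.24 and 18.13 in VEGF-C replicates 1 to 4 and a fold change of 0.17 ± 0.17 (limma adjusted p = 0.511), negative with library totals. In both genes PBS and VEGF-C overlapped. Myl3, the ventricular essential light chain, had a fold change of 0.23 ± 0.15.

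The atrial light chains spread more within VEGF-C than any other member, and 1 library stood far above the rest. Myl7, the atrial regulatory light chain, had values of 13.39, 13.35, 13.16 and 13.77 in PBS replicates 1 to 4 and 13.01, 12.97, 14.61 and 12.40 in VEGF-C replicates 1 to 4. VEGF-C replicate 3 was the highest library of all and VEGF-C replicates 1, 2 and 4 were the lowest ones; the fold change was -0.17 ± 0.38 (limma adjusted p = 0.798). Myl4, the atrial essential light chain, had values of 13.88, 13.97, 13.90 and 14.93 in PBS replicates 1 to 4 and 13.39, 13.38, 15.58 and 13.08 in VEGF-C replicates 1 to 4, again with these VEGF-C libraries at both ends, and a fold change of -0.32 ± 0.49 (limma adjusted p = 0.692). Without VEGF-C replicate 3 the fold change of Myl4 was -0.89 (limma adjusted p = 0.0496), and that of Myl7 was -0.62 (0.0595).

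Other atrial genes were high in the same library. Of the 5 further genes of the atrial list, Sln, the atrial inhibitor of the calcium pump, was at 12.64 in VEGF-C replicate 3, against 10.93 to 11.75 in PBS and 10.60 to 11.11 in the other VEGF-C libraries. Nppa, atrial natriuretic peptide, was at 16.37 there, against at most 15.42 in PBS. Stard10 was at 11.50, against at most 10.68 in PBS, and Dkk3 did not stand out (12.51). Bmp10, a gene of the right atrium, had values of 11.63, 3.78, 11.82 and 10.86 in PBS replicates 1 to 4 and 5.40, 13.08, 12.81 and 11.65 in VEGF-C replicates 1 to 4. None of the 7 atrial genes passed or was at 0, and their summed normalized count ran from 63907 to 101370 in PBS and from 50319 to 181418 in VEGF-C. How much atrial tissue each sample held was not tested.

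Within a library, differences between isoforms do not depend on the scaling, and for none of the 4 pairs did the difference between the groups pass an exact two-sided permutation test (70 assignments, smallest possible p = 0.0286). Myh7 minus Myh6 was -3.84, -3.81, -3.32 and -4.01 in PBS and -3.90, -3.44, -4.01 and -3.64 in VEGF-C on the log2 scale. The means differed by -0.01 (exact p = 0.943), and Myh7 made up 7.03% ± 1.43 in PBS and 6.98% ± 1.16 in VEGF-C of the reads of the pair (SD, n = 4). Acta1 minus Actc1 was 0.87, 0.31, 0.52 and -0.39 in PBS and 0.78, 0.55, 0.36 and -0.10 in VEGF-C. The difference of means was 0.07 (exact p = 0.800), and replicate 4 was lowest in both groups. Myl7 minus Myl2 and Myl4 minus Myl3 differed by -0.51 and -0.54 between the group means (exact p = 0.486 and 0.400). The adjusted p over the 4 pairs was 0.943 for each in this permutation test. After this adjustment a single fully separated pair could not have passed by itself, so the adjusted test could not detect a change confined to a single pair. The signs of the first 2 pairs changed when single libraries were left out.

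**Figure D2:**
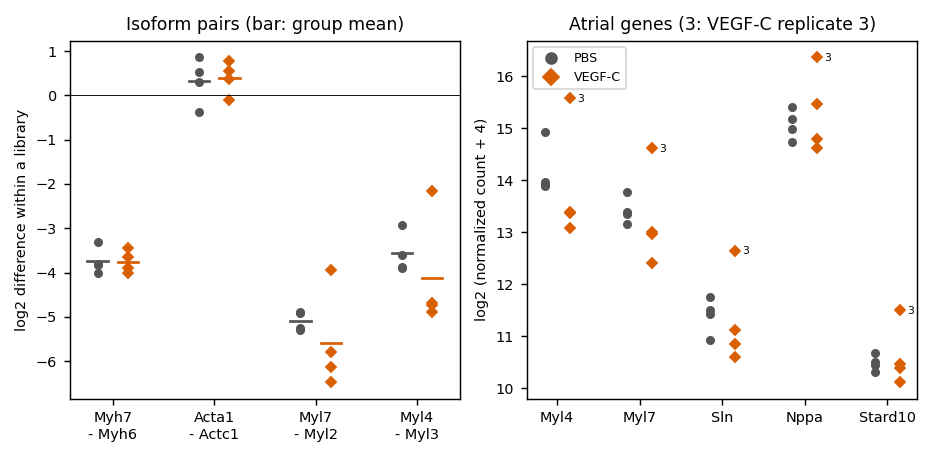
The left panel plots the log2 difference between the 2 genes of each isoform pair in every library, with a bar at the group mean; the right panel plots log2 values of 5 atrial genes per library (grey circles PBS, orange diamonds VEGF-C). The Myh7 to Myh6 difference overlaps between the groups, and VEGF-C replicate 3 (marked 3) is the highest library for each of the 5 atrial genes drawn. Dkk3 and Bmp10 of the atrial list are not drawn, and both were highest in VEGF-C replicate 2.

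The myosin assembly genes were Smyd1, a muscle methyltransferase that partners with the myosin chaperone, and Unc45b, that chaperone. Smyd1 had values of 14.77, 14.66, 14.52 and 14.81 in PBS replicates 1 to 4 and 15.03, 15.07, 14.93 and 15.00 in VEGF-C replicates 1 to 4. It rose by 0.32 ± 0.09 (limma adjusted p = 0.0314), without overlap. With 1 library left out, it passed only when this was PBS replicate 1 or 4 (otherwise up to 0.0757). Unc45b had a fold change of 0.13 ± 0.14 (limma adjusted p = 0.530).

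Because the libraries can be scaled in several ways, the 13 members that rose were followed across scalings. Library totals lowered the median fold change of all genes by 0.19 on the log2 scale, and 5 of the 13 passed. They were Mypn (0.78), Synpo (0.53), Actn2 (0.42), Palld (0.36) and Myoz2 (0.31). All 5 are in the Z-disc group as listed here, though Synpo and Palld are also made outside muscle. Under this scaling 1.29% of all genes rose. With upper-quartile factors 8 of the 13 passed (4.23% of all genes rose), and with TMM factors 12 (6.61%). When each library was shifted by the mean log2 value of the 14 other cardiomyocyte genes, a scaling chosen after the values were seen, 2 of the 44 members rose, Mypn (0.67, limma adjusted p = 0.000479) and Synpo (0.42, 0.0244). Under it 0.25% of all genes rose, the median of the members was 0.03, and 25 of 44 fold changes were positive.

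**Figure D3:**
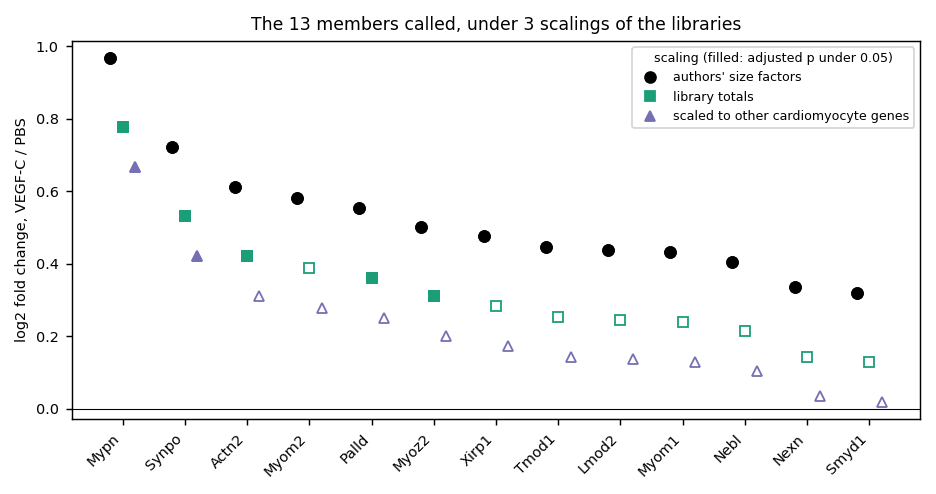
The log2 fold change (VEGF-C against PBS) of the 13 members that rose is plotted under 3 scalings of the libraries: black circles the authors' size factors, green squares library totals, purple triangles a shift by the mean of 14 other cardiomyocyte genes; filled symbols have a limma adjusted p under 0.05. Mypn and Synpo are filled under all 3, while Smyd1 and Nexn come near 0 under the last.

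Leaving out 1 library at a time gave between 5 and 17 members that rose. It was 5 without PBS replicate 2, 17 without PBS replicate 1, and 7 without PBS replicate 3, VEGF-C replicate 2 or VEGF-C replicate 4. It was 9 without PBS replicate 4, 11 without VEGF-C replicate 1, and 6 without VEGF-C replicate 3, where Myl4 was lower. Mypn, Synpo, Actn2, Palld and Myoz2 passed in each of these 8 fits. The share of all genes that rose in each fit is not given here, so the swing in these counts cannot be read as particular to the members.

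Levels were compared between genes per kb of merged exons, with lengths from GENCODE M21. Myh6 had 204529 ± 47546 in PBS and 253798 ± 23131 in VEGF-C normalized counts per kb (SD, n = 4). Acta1, which was just below Myh6 in PBS and first in VEGF-C, had 203449 ± 50689 in PBS and 296162 ± 60855 in VEGF-C, and the ranges of mean ± SD of these neighbours overlapped in both groups. Myl2, Tnnc1 and Actc1 followed in PBS, and each overlapped with its neighbour within the SD. Mypn, at 1224 ± 164 in PBS and 2378 ± 34 in VEGF-C, was number 38 of 44 in PBS and number 36 in VEGF-C. It was close to Ttn in PBS (1218 ± 201) and above Ttn in VEGF-C (1711 ± 224). Synpo had 941 ± 62 in PBS and 1553 ± 67 in VEGF-C and Ankrd23 was last with 438 ± 74 in PBS and 407 ± 96 in VEGF-C. The merged length counts all annotated isoforms and so understates the level of genes with many unused exons.

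**Figure D4:**
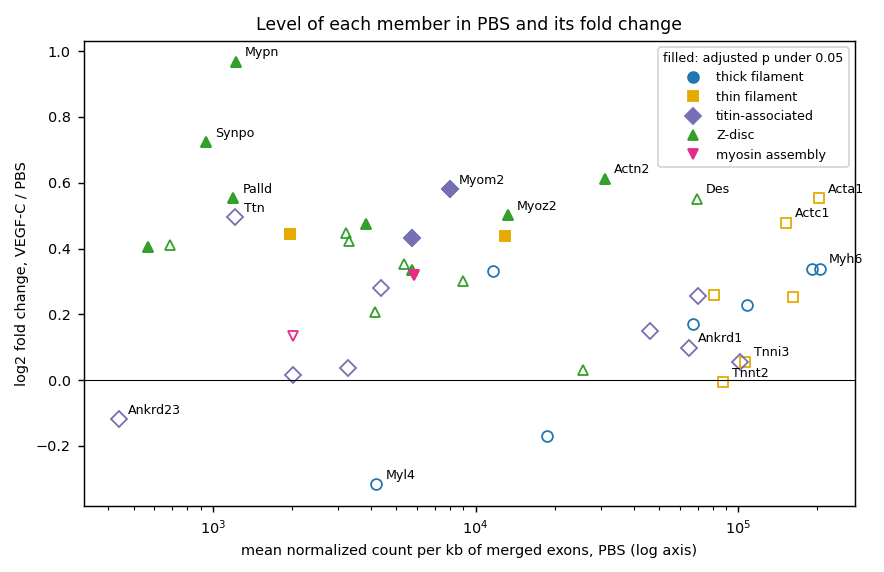
Each point is 1 of the 44 genes, with its mean PBS level (normalized count per kb of merged exons, log axis) against its log2 fold change, VEGF-C against PBS; symbols give the role and filled symbols a limma adjusted p under 0.05. Filled symbols lie at low and middle levels, with Actn2 the most abundant of them, and the most abundant genes (Myh6, Acta1, Myl2) are open.

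In all, the 44 genes took 9.95%, 10.6%, 9.67% and 10.2% in PBS replicates 1 to 4 and 10.8%, 11.8%, 10.4% and 10.5% in VEGF-C replicates 1 to 4 of the reads of a library. The 2 ranges overlapped, from 9.67% to 10.6% and from 10.4% to 11.8%. They did not overlap when reads of mitochondrially encoded genes were left out of the total. The share then ran from 10.4% to 11.4% in PBS and from 11.8% to 13.1% in VEGF-C. Abundant genes as a whole also separated, in summed normalized count. The top 10% of genes by mean value summed from 39410222 to 43151587 in PBS and from 49451444 to 50361796 in VEGF-C. The separation of the share therefore cannot be read as particular to the members. Of all reads of a library, thick and thin filament genes held most of the members' share. They took 3.92% ± 0.612 and 3.59% ± 0.214 in PBS and 4.21% ± 0.243 and 3.74% ± 0.479 in VEGF-C (SD, n = 4). The Z-disc genes took 1.28% ± 0.143 in PBS and 1.54% ± 0.201 in VEGF-C. Mitochondrially encoded genes took from 6.70% to 10.2% in PBS and from 9.53% to 11.8% in VEGF-C.

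**Figure D5:**
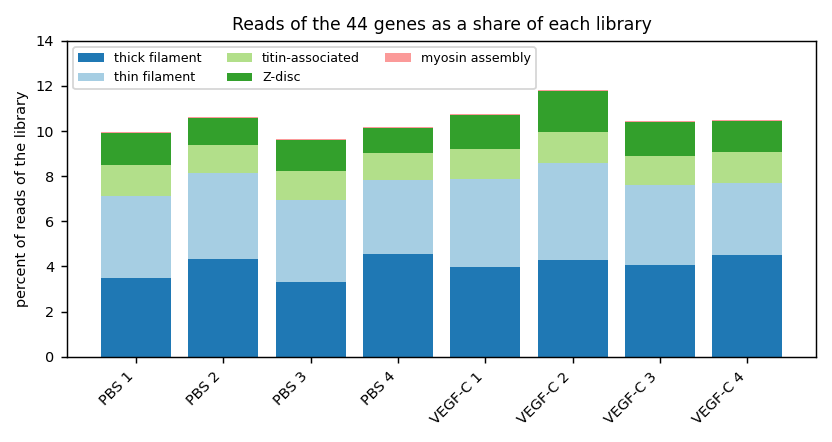
Stacked bars give the percent of the reads of each library taken by the 44 genes, split by role, for the 4 PBS and 4 VEGF-C libraries; the axis starts at 0. The totals run from 9.67% to 11.8% and the thick and thin filament genes make up most of each bar.

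Within the groups, the members did not all vary together. In PBS, replicate 1 was the highest library for 18 members, among them Ankrd1, Cryab, Csrp3, Flnc, Xirp1, Xirp2, Synpo2l and Nebl, and the lowest for 7, among them Myh7, Myl2 and Mybpc3. PBS replicate 4 was highest for 17, including Myh6 and Ttn, and lowest for 11, including Acta1, Ankrd1, Des and Xirp2. PBS replicate 3 was lowest for 22. In VEGF-C, replicate 2 was highest for 22 members and replicate 4 for 12. The widest SD within PBS was that of Synpo2l (0.55 on the log2 scale) and the narrowest that of Tpm1 (0.03). In VEGF-C the narrowest was that of Mypn (0.02).

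Over all genes 7.05% rose and 8.61% fell. In the top 10% of genes by mean value 24.9% rose, 2.02% fell and the median log2 fold change was 0.20. Of 44 other sarcomere and costamere genes 42 had values, 8 rose, 0 fell and the median log2 fold change was also 0.20. Bag3, a cochaperone that clears damaged Z-disc proteins such as filamin, rose most, by 0.73 ± 0.09 (limma adjusted p = 0.000868). Its values were 14.03, 13.92, 13.66 and 13.82 in PBS replicates 1 to 4 and 14.59, 14.57, 14.64 and 14.56 in VEGF-C replicates 1 to 4, and the groups did not overlap. Also higher were the PDZ-LIM gene Pdlim1 (0.44 ± 0.07), the actin capping subunit Capzb (0.34 ± 0.07), which lies at the Z-disc in muscle, the desmin-binding Sync (0.60 ± 0.15), the muscle cofilin Cfl2 (0.36 ± 0.10) and the sarcoglycan Sgca (0.29 ± 0.08). Fhod3 and Cavin4 made up the 8. With library totals only Bag3 and Pdlim1 passed. Bag3, Pdlim1 and Capzb passed without any 1 library. When 1 library was left out, Sync kept its call only without PBS replicate 1, PBS replicate 4, VEGF-C replicate 1 or VEGF-C replicate 2 (limma adjusted p otherwise up to 0.0631), Cfl2 only without PBS replicate 1 (0.0896) and Sgca only without PBS replicate 2 (0.100).

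Among 16 regulators of sarcomere genes, 5 rose and 0 fell, with a median of 0.21. These stand beside 7.05% of all genes that rose, and 24.9% with a median of 0.20 in the top 10% by mean value. Myocd, myocardin, the cardiac coactivator of SRF, had values of 10.85, 10.81, 10.75 and 11.07 in PBS replicates 1 to 4 and 11.37, 11.32, 11.49 and 11.74 in VEGF-C replicates 1 to 4. It rose by 0.61 ± 0.11 (limma adjusted p = 0.00546), with no overlap. Srf itself rose by 0.46 ± 0.11 and the other SRF coactivators Mrtfa and Mrtfb were at 0.09 ± 0.07 and 0.07 ± 0.07. Foxo3, a transcription factor of the atrophy programme, rose by 0.55 ± 0.11, the homeobox gene Nkx2-5 by 0.46 ± 0.13 and Tead1, which binds the CATTCC core, by 0.38 ± 0.11. The MEF2 genes Mef2a, Mef2c and Mef2d were at 0.24 ± 0.09, 0.07 ± 0.08 and 0.28 ± 0.10 and did not pass. With library totals only Myocd and Foxo3 passed, which also passed without any 1 library. Srf needed VEGF-C replicates 1, 2 and 3 to pass (limma adjusted p up to 0.0587 without one of them), and fits without 1 library kept Nkx2-5 only when it was PBS replicate 2, VEGF-C replicate 3 or VEGF-C replicate 4 (up to 0.0814) and Tead1 only when it was PBS replicate 1 or VEGF-C replicate 1 (up to 0.112).

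Beside 7.05% of all genes and 24.9% of the top 10% by mean value that rose stand the cardiomyocyte genes outside the sarcomere. Of these 14 genes, 3 rose and 0 fell, and the median was 0.35, against 0.33 for the members and 0.20 for that top 10%. The 3 were the cytochrome oxidase subunit Cox6a2 (0.44 ± 0.12), the natriuretic peptide protease Corin (0.47 ± 0.12) and the calcium store protein Casq2 (0.47 ± 0.13). None passed with library totals. With 1 library left out, Cox6a2 passed only when it was PBS replicate 1, PBS replicate 2 or VEGF-C replicate 4, Corin only when it was PBS replicate 1, PBS replicate 4, VEGF-C replicate 1 or VEGF-C replicate 2, and Casq2 only when it was PBS replicate 4 or VEGF-C replicate 1 (limma adjusted p otherwise up to 0.0804, 0.0681 and 0.0920).

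Genes of other cell types and 1 further RNA class were read in the same libraries, where 7.05% of all genes rose and 8.61% fell. Of 10 leukocyte genes 3 fell (Cd79a, Ptprc and Ly6c2) and 0 rose, with a summed normalized count from 144617 to 234876 in PBS and from 142037 to 203267 in VEGF-C, and of 6 endothelial genes 0 passed. Of 10 skeletal muscle genes 7 had values, 0 passed, and their sum ran from 433 to 1177 in PBS and from 584 to 1730 in VEGF-C. Of 5 ventricular genes 0 passed, and their sum ran from 575276 to 690851 in PBS and from 645983 to 888401 in VEGF-C. All 8 nuclear noncoding RNAs of the list fell, among them Neat1 (-2.20 ± 0.09) and Malat1 (-0.89 ± 0.18), and their sum ran from 95022 to 117294 in PBS and from 26860 to 30254 in VEGF-C. None of these genes was at 0 in any library, and their part in the values of the sarcomere genes was not tested.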

How the data were processed

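RNA of RIN above 8.0 was made into stranded poly(A) libraries, per the labels' protocols. The submitters' processing notes name, with no role or order, DESeq2 1.38.3, Subread 2.0.1, featureCounts, STAR 2.7.10a, Trim Galore 0.6.10 and the build GRCm39; the sources used here do not give the annotation, strand setting or filters. The authors deposited log2 values for 18835 of 56941 genes. Read back, each is log2(x + 4) with x a read count over 1 size factor per library: 100% of values came out whole within 0.01 reads. The authors' deposited table also holds their adjusted p-value per gene, missing for 23. Replicate numbers are those of the columns, which match no animal number in the labels. Nothing says more about the origin of the samples, so p-values weigh the group difference only against the spread between samples within the groups.

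All genes were fitted with limma 3.58.1 in R 4.3.3 (1 factor, trended variances, 6 residual degrees of freedom, two-sided Benjamini-Hochberg adjusted p) on the deposited log2 values, in place of the count test planned for raw counts. The fit was tested on simulated data. The members and lists were chosen with earlier results of these data known. Values in every library are printed for each member that passed and for a fixed set; up to 6 passing genes are named per other list. Alternatives were other scalings, pseudocount 1, a filter (at least 10 normalized counts in at least 4 libraries), limma-voom on recovered reads, other variance fits and leaving out each library.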

Additional observations from a re-analysis of the deposited data

Results flagged for a closer look

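In 8 cases among the 98 groups of 4 libraries examined (44 members, 4 isoform differences and the read share, in each treatment group), 1 library lay far from the other 3; chance does this in about 1 in 20 groups. The atrial light chain gene Myl4 was high in PBS replicate 4 (14.93 on the log2 scale) and in VEGF-C replicate 3 (15.58), and the difference Myl4 minus Myl3 was high in the latter (-2.17). Trim54 was high (13.01) and Nexn (14.58) and Vcl (12.54) were low in VEGF-C replicate 1. Actn2 was low in PBS replicate 3 (16.72), and Xirp1 was high in PBS replicate 1 (14.79).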

How the results depend on the processing

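In place of 13 members that rose (0 fell), the count was 5 with library totals, 8 with upper-quartile factors, 8 without a variance trend (7 of the 13, and Actc1), 21 by the authors' adjusted p and 2 when scaled to other cardiomyocyte genes, an alternative chosen after seeing the data. It was 12 to 17 with TMM factors, pseudocount 1, a filter on low values, limma-voom, quality weights or robust variances.

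In the order library totals, upper-quartile factors, no trend and cardiomyocyte scaling, the counts by role were 0, 1, 1 and 0 for the thin filament (against 2; without a trend the 1 was Actc1, not Lmod2 or Tmod1; 5 by the authors), 0, 1, 1 and 0 for titin-associated genes (against 2) and 0 in each for myosin assembly (against 1). Z-disc counts were 5 with library totals and 2 with cardiomyocyte scaling (against 8), and the authors' adjusted p passed 1 thick filament gene. In that order, other sarcomere genes gave 2, 4, 4 and 1 (against 8; 1 also lower in the last), regulators 2, 3, 2 and 0 (against 5) and other cardiomyocyte genes 0, 1, 1 and 0 (against 3; 6 by the authors). That scaling fixes the mean of these same genes across libraries, so the last 0 is not an independent result.

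Without 1 library at a time, members that rose numbered 5 to 17 and those lower 0 to 1, thin filament 0 to 2, titin-associated 0 to 2, Z-disc 5 to 12, myosin assembly 0 to 1, other sarcomere 3 to 11, regulators 2 to 4 and other cardiomyocyte genes 0 to 4. These counts stand without the share of all genes that rose in the same fits.

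With library totals, the log2 fold change turned negative for Mybpc3 (-0.020), Tnni3 (-0.14), Tcap (-0.14), Ankrd1 (-0.093), Fhl2 (-0.042), Trim63 (-0.16), Trim55 (-0.17), Csrp3 (-0.16), Unc45b (-0.058) and the titin-associated median (-0.042). With upper-quartile factors, the log2 fold change turned negative for Trim63 (-0.019), Trim55 (-0.038) and Csrp3 (-0.025). With voom quality weights, the log2 fold change turned negative for Tcap (-0.0091) and Trim55 (-0.027). In the authors' deposited table, the log2 fold change turned positive for Myl4 (0.024), Myl7 (0.078) and Tnnt2 (0.026). With cardiomyocyte scaling, the log2 fold change turned negative for Myl3 (-0.074), Mybpc3 (-0.13), Tnni3 (-0.25), Tnnc1 (-0.047), Tpm1 (-0.042), Tcap (-0.25), Ankrd1 (-0.20), Fhl2 (-0.15), Cryab (-0.046), Trim63 (-0.26), Trim54 (-0.022), Trim55 (-0.28), Csrp3 (-0.27), Flnc (-0.094), Unc45b (-0.17), the thick filament median (-0.074), the titin-associated median (-0.15) and the myosin assembly median (-0.074). Without 1 library at a time, the sign changed for Myl7 (-0.62 to 0.11), Tnnt2 (-0.17 to 0.086), Tcap (-0.028 to 0.14), Ankrd1 (-0.025 to 0.18), Ankrd23 (-0.26 to 0.010), Trim63 (-0.0072 to 0.11), Trim55 (-0.056 to 0.094), Csrp3 (-0.073 to 0.13), Myh7 minus Myh6 (-0.11 to 0.14) and Acta1 minus Actc1 (-0.16 to 0.25). The cause of these changes was not tested.

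No paired analysis was possible because the columns carry no number that the labels share between the groups. With 4 libraries a group, 7 of the 13 genes passed in no more than 3 of the 8 fits without 1 library.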
